A study of Mus musculus with 4 samples.

Results

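The genes described here encode the matrix metalloproteinases (Mmp), the ADAMTS proteases (Adamts) and the tissue inhibitors of metalloproteinases (Timp). They were picked out by name, as every row whose symbol starts with Mmp, Adamts or Timp followed by a digit, with Mmp9 left out. The set was chosen with earlier results of these data known. This gave 46 of 45706 genes, namely 23 Mmp, 19 Adamts and 4 Timp rows, and 33 of them reached 1 CPM (the usual depth-scaled unit, counts per mega-count of a library) in at least 1 library. Mmp27 is listed under 2 identifiers, one of which had 0 counts in every library.

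RNA was sequenced from regenerating mouse digit tips 14 days post-amputation, and each of 4 genotypes is represented by a single library. The groups were a conditional knockout (cKO) of Sp6, a cKO of Sp8, a cKO of both (Sp6+Sp8 cKO) and wildtype, which allow the deletions to be set against wildtype and against each other. Sp6 and Sp8 encode zinc-finger transcription factors that act in the epidermis. Per the labels' protocols, the knockouts received 75 mg/kg of tamoxifen per day over 5 days and then rested for 5 days. The sources used here do not give the Cre driver, strain, sex, age or number of animals behind a library, nor whether wildtype mice had tamoxifen. The protocols describe amputations through the distal and through the middle phalanx and do not say which was used for these samples. The labels put every cKO library in batch 1 and wildtype in batch 3. Against wildtype, knockout and batch therefore cannot be told apart, whereas cKO libraries can be set against each other inside batch 1. However, Xist, an RNA of the inactive X, was far lower in Sp8 cKO than in the other libraries. Sex may thus differ along with genotype wherever Sp8 cKO is compared, inside batch 1 too. Xist was also 2.31-fold higher in Sp6+Sp8 cKO than in wildtype and 1.80-fold higher than in Sp6 cKO. Whether the mix of sexes differed in those comparisons is not known.

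Matrix metalloproteinases are zinc-dependent enzymes, secreted or held at the cell membrane, that are made as inactive precursors and cut collagens, proteoglycans and other matrix and surface proteins. ADAMTS proteases are secreted relatives that cleave proteoglycans such as aggrecan and versican, or trim procollagens before fibrils form. TIMPs bind the active site of these enzymes and block it. In a regenerating digit tip such enzymes take part in wound closure, in the removal of bone by osteoclasts and in the remodelling of new matrix.

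Because each group is a single library, differences have no replicate check and are given without tests or p-values, as descriptions of the libraries. A gene was counted as past the size rule when its log2 ratio was at least 1 in either direction, its CPM was at least 1 in either library, and the exact Clopper-Pearson 95% interval of its ratio excluded 1. Intervals cover counting error only. Log2 ratios include a prior count of 2, which shrinks them at low counts, whereas fold ratios and their intervals do not. Total counts were 13054843 in Sp6 cKO, 12588511 in Sp8 cKO, 15146015 in Sp6+Sp8 cKO and 21834883 in wildtype, and 3 counts corresponded to 0.138 to 0.238 CPM. Sp6 transcripts stood at 29.2 CPM in Sp6 cKO, 95.6 CPM in Sp8 cKO, 57.8 CPM in Sp6+Sp8 cKO and 97.7 CPM in wildtype. Sp8 transcripts stood at 66.1, 16.8 and 13.4 CPM in the same cKO libraries and at 63.9 CPM in wildtype. Sp6 in Sp6+Sp8 cKO was thus 1.69-fold lower than in wildtype and did not reach the size rule. The tissue was whole digit tip, in which basal keratinocyte markers summed to 6012 to 6087 CPM in the cKO libraries and 6628 CPM in wildtype, and fibroblast markers to 12501 to 15713 CPM in the cKO libraries and 15763 CPM in wildtype.

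The promoters of 3 genes that the comparisons below turn on are shown first, as the 250 bases before the annotated start, from RefSeq on GRCm38.p6. Mmp13 and Mmp3 are shown because they share the motif in capitals, TGANTCA, where N is any base. It is a loose form of the letters bound by the AP-1 transcription factors (Fos and Jun proteins). Mmp25 is shown as a contrast, with matches to the GC box GGGCGG or its complement in capitals, the letters bound by factors such as Sp1.
Mmp13, chr9:7272264-7272513, plus strand: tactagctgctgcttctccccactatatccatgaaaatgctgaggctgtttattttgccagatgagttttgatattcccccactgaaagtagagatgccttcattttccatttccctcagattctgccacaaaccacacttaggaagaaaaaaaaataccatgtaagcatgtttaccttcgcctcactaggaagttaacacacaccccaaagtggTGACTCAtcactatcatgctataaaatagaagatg
Mmp3, chr9:7445572-7445821, plus strand: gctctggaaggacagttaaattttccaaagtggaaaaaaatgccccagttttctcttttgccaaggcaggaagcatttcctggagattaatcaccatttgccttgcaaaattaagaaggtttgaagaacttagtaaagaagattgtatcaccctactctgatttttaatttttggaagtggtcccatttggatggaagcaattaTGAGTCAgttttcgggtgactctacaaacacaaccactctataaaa
Mmp25, chr17:23645270-23645519, minus strand: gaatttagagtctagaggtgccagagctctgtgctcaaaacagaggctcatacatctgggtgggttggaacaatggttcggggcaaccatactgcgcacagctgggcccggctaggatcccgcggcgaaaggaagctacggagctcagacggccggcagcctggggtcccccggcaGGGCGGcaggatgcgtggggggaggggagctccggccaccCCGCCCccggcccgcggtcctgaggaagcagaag
The AP-1 motif began 35 bases before the start in Mmp13 and 46 bases before it in Mmp3, and both promoters also hold TATAAA, at 16 and 7 bases before the start. Searched on both strands, TGANTCA occurred in 6.75% of 32851 promoters of this length, GGGCGG in 32.7% and TATAAA in 12.4%. A match describes the letters and does not show that a factor binds there.

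Across the 4 libraries the most abundant members per kilobase of exon were 2 inhibitors and gelatinase A. Mean levels were 123 CPM per kb for Timp2, 106 for Mmp2, 55.1 for Timp3, 36.5 for Mmp14, 27.7 for Mmp13, 12.6 for Timp1, 10.8 for Adamts1, 9.31 for Adamts2, 7.49 for Mmp3 and 5.03 for Mmp23. Together the 46 genes took 0.205% of counts in Sp6 cKO, 0.216% in Sp8 cKO, 0.207% in Sp6+Sp8 cKO and 0.190% in wildtype. Most of them differed little between genotypes. The highest library was less than 1.5-fold above the lowest in 20 of the 33 measured members, between 1.5-fold and 2-fold in 8, and at least 2-fold above it in 5, which were Mmp25, Mmp3, Mmp13, Adamts8 and Mmp27.

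**Figure D1:**
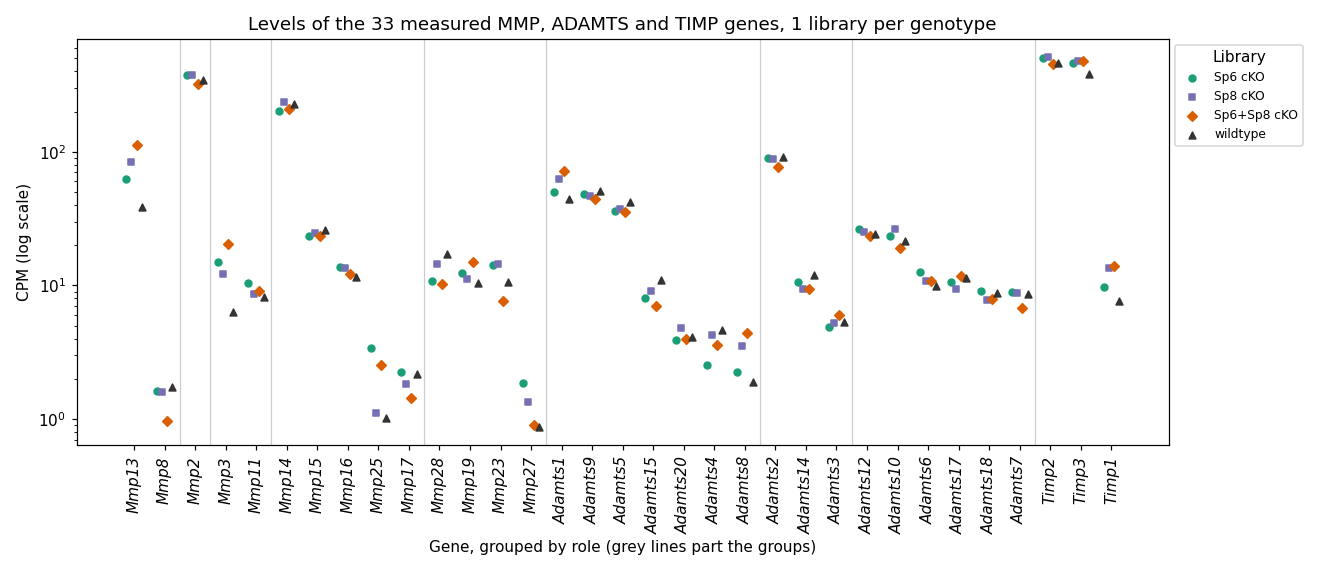
CPM on a log axis of the 33 measured genes in each library, grouped by role, with 1 point per library. The points of most genes lie close together, while the Mmp13, Mmp3, Mmp25 and Adamts8 points spread by 2-fold or more.

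The collagenases, which cut fibrillar collagen, were represented by Mmp13. Mmp13 (ENSMUSG00000050578, chromosome 9, 7272514 to 7283331 on GRCm38), the main collagenase of mouse bone and cartilage, stood at 62.1 CPM in Sp6 cKO, 83.9 CPM in Sp8 cKO and 111 CPM in Sp6+Sp8 cKO, against 38.5 CPM in wildtype. All 3 cKO libraries lay above wildtype, and the double cKO was highest. Relative to wildtype, Mmp13 was 2.90-fold higher in Sp6+Sp8 cKO (95% interval 2.66 to 3.15) and 2.18-fold higher in Sp8 cKO (1.99 to 2.39). In Sp6 cKO the ratio of 1.61 (1.46 to 1.78), a log2 ratio of 0.69, was short of the size rule. Within batch 1, the Sp6+Sp8 cKO level of Mmp13 was 1.79-fold that of Sp6 cKO (1.65 to 1.95) and 1.33-fold that of Sp8 cKO (1.23 to 1.44), both short of the rule. Mmp8, the neutrophil collagenase, was below 2 CPM in every library, at 1.63, 1.59 and 0.975 CPM in Sp6, Sp8 and Sp6+Sp8 cKO and 1.75 CPM in wildtype. Mmp1a and Mmp1b, the mouse counterparts of interstitial collagenase, were below 1 CPM throughout, and Mmp1b had 0 counts in all 4 libraries.

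The stromelysins cleave proteoglycans and non-fibrillar matrix proteins and can activate other MMP precursors. Mmp3 (stromelysin 1, ENSMUSG00000043613, chromosome 9, 7445822 to 7455975) stood at 15.0 CPM in Sp6 cKO, 12.2 CPM in Sp8 cKO and 20.3 CPM in Sp6+Sp8 cKO, against 6.35 CPM in wildtype. Again all 3 cKO libraries lay above wildtype and the double cKO was highest, but here Sp6 cKO stood above Sp8 cKO. Mmp3 was 3.21-fold higher in Sp6+Sp8 cKO than in wildtype (95% interval 2.62 to 3.94) and 2.37-fold higher in Sp6 cKO (1.90 to 2.97). The ratio of Sp8 cKO to wildtype was 1.93 (1.52 to 2.44), and the log2 ratio with the prior count, 0.93, was short of the rule. Sp8 cKO over Sp6 cKO gave a log2 ratio of -0.30 with a counting interval that included no difference. Mmp11 (stromelysin 3) ranged from 8.57 to 10.4 CPM in the cKO libraries and was 8.19 CPM in wildtype. Mmp10 (stromelysin 2) stayed below 1 CPM, with 0.388, 0.556 and 0.845 CPM in Sp6, Sp8 and Sp6+Sp8 cKO and 0.414 CPM in wildtype.

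Membrane-type MMPs are anchored at the cell surface. Mmp25 (ENSMUSG00000023903, chromosome 17, 23628311 to 23645277, minus strand), a protease known from leukocytes, stood at 3.41 CPM in Sp6 cKO, 1.11 CPM in Sp8 cKO and 2.53 CPM in Sp6+Sp8 cKO, against 1.01 CPM in wildtype. These rest on 44, 14 and 39 counts in the cKO libraries and 22 in wildtype. The 2 libraries with the Sp6 deletion were high, while Sp8 cKO and wildtype were low and close to each other. Mmp25 was 3.37-fold higher in Sp6 cKO than in wildtype (95% interval 1.98 to 5.91) and 2.51-fold higher in Sp6+Sp8 cKO (1.45 to 4.44). Within batch 1 it was 3.07-fold lower in Sp8 cKO than in Sp6 cKO (1.65 to 6.07) and 2.28-fold higher in Sp6+Sp8 cKO than in Sp8 cKO (1.21 to 4.55). Mmp14, the membrane-bound activator of Mmp2, was abundant and level, at 201 CPM in Sp6 cKO, 234 CPM in Sp8 cKO and 209 CPM in Sp6+Sp8 cKO, against 227 CPM in wildtype. Its log2 ratios to wildtype were -0.18, 0.05 and -0.12 in the same order of cKO libraries. Mmp15, Mmp16 and Mmp17 did not pass the size rule in any of the 6 comparisons, and Mmp24 stayed below 1 CPM.

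Gelatinase A (Mmp2), which degrades denatured and basement membrane collagen and is made mainly by mesenchymal cells, made up 42.9% to 50.3% of the summed Mmp CPM of the cKO libraries and 48.7% of that in wildtype. It stood at 378 CPM in Sp6 cKO, 378 CPM in Sp8 cKO and 321 CPM in Sp6+Sp8 cKO, against 346 CPM in wildtype, with log2 ratios of 0.13, 0.13 and -0.11. The double cKO was the lowest of the 4 libraries.

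Among the remaining MMPs no member passed the size rule. Mmp23, a short membrane-inserted MMP, stood at 14.3 CPM in Sp6 cKO, 14.4 CPM in Sp8 cKO and 7.67 CPM in Sp6+Sp8 cKO, against 10.7 CPM in wildtype. Each single cKO was above wildtype and the double cKO below it. Mmp23 was 1.88-fold lower in Sp6+Sp8 cKO than in Sp8 cKO (95% interval 1.49 to 2.40) and 1.86-fold lower than in Sp6 cKO (1.47 to 2.36), just short of the rule. A pair of further genes was chosen after their values were seen. Mmp27 had a log2 ratio of 0.99 for Sp6 cKO over wildtype, just outside the rule, although its ratio without the prior count was 2.13. It stood at 1.86, 1.35 and 0.910 CPM in Sp6, Sp8 and Sp6+Sp8 cKO and 0.874 CPM in wildtype. Mmp28, a keratinocyte-expressed MMP known as epilysin, stood at 10.9, 14.4 and 10.2 CPM in those cKO libraries and 17.2 CPM in wildtype, and its lowest log2 ratio was -0.75 in Sp6+Sp8 cKO. Mmp7, Mmp12, Mmp20 and Mmp21 stayed below 1 CPM, and Mmp20 had 0 counts in all 4 libraries.

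Among the 7 proteoglycan-cleaving ADAMTS genes, Adamts8 was the only one past the size rule, in Sp6+Sp8 cKO against wildtype. Adamts8 (chromosome 9, 30942562 to 30963838), which cleaves aggrecan, stood at 2.25 CPM in Sp6 cKO, 3.49 CPM in Sp8 cKO and 4.42 CPM in Sp6+Sp8 cKO, against 1.89 CPM in wildtype. The double cKO was highest and 2.34-fold above wildtype (95% interval 1.57 to 3.54, on 68 and 41 counts). Its log2 ratio, with the prior count, was 1.18. Sp8 cKO had a log2 ratio of 0.85 and Sp6 cKO one of 0.24. Its exons overlap those of the antisense gene Gm29724, and the sources used here do not say whether counting used strand, so its value may hold reads of both. Adamts1, a versican- and aggrecan-cleaving protease, stood at 49.7 CPM in Sp6 cKO, 62.2 CPM in Sp8 cKO and 72.4 CPM in Sp6+Sp8 cKO, against 44.2 CPM in wildtype. It had the same order of libraries as Adamts8 and Mmp13, with a ratio to wildtype of 1.64 in the double cKO (1.5 to 1.79), short of the rule. Adamts5, the main aggrecanase of mouse cartilage, lies 53.06 kb from Adamts1 on chromosome 16. Its level was 35.5 to 37.5 CPM in the cKO libraries and 41.9 CPM in wildtype. Adamts15 lies 20.11 kb from Adamts8 on the opposite strand and stood at 8.06, 9.05 and 7.02 CPM in Sp6, Sp8 and Sp6+Sp8 cKO and 10.9 CPM in wildtype. In both neighbouring pairs, 1 gene was above wildtype in all 3 cKO libraries and the other was below it.

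The procollagen N-proteinases, which remove the amino-terminal propeptide of fibrillar procollagens, did not pass the size rule in any comparison. Adamts2 stood at 89.8 CPM in Sp6 cKO, 88.7 CPM in Sp8 cKO and 77.1 CPM in Sp6+Sp8 cKO, against 92.2 CPM in wildtype. Adamts3 and Adamts14 likewise stayed within the rule, at 4.88 and 10.5 CPM in Sp6 cKO, 5.24 and 9.37 CPM in Sp8 cKO and 6.04 and 9.42 CPM in Sp6+Sp8 cKO, against 5.34 and 12 CPM in wildtype. None of the other ADAMTS genes passed the rule. Adamts6, Adamts7, Adamts10, Adamts12, Adamts17 and Adamts18 lay between 6.76 and 26.5 CPM in the cKO libraries and between 8.55 and 24.1 CPM in wildtype, while Adamts13, Adamts16 and Adamts19 stayed below 1 CPM. Summed over the family, Adamts genes gave 347 CPM in Sp6 cKO, 361 CPM in Sp8 cKO and 345 CPM in Sp6+Sp8 cKO, against 354 CPM in wildtype.

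No inhibitor passed the size rule. Timp1 (chromosome X, 20870166 to 20874735), the inducible inhibitor, stood at 9.69 CPM in Sp6 cKO, 13.5 CPM in Sp8 cKO and 14.0 CPM in Sp6+Sp8 cKO, against 7.59 CPM in wildtype. Both libraries with the Sp8 deletion were high. The ratio to wildtype was 1.84 in Sp6+Sp8 cKO (95% interval 1.5 to 2.27) and 1.78 in Sp8 cKO (1.43 to 2.22). Timp1 is X-linked, and Xist, the RNA that coats the inactive X, stood at 1963 CPM in Sp6 cKO, 27.9 CPM in Sp8 cKO and 3528 CPM in Sp6+Sp8 cKO, against 1526 CPM in wildtype. Xist in Sp8 cKO was 54.6-fold lower than in wildtype and 70.2-fold lower than in Sp6 cKO. This bears on all members where Sp8 cKO is compared, not only on X-linked ones. Xist also stood higher in Sp6+Sp8 cKO than in wildtype (2.31-fold) and than in Sp6 cKO (1.80-fold). The part of sex in the values of Timp1 and of the other members was not tested. Timp2, which also takes part in the activation of Mmp2 by Mmp14, stood at 501 CPM in Sp6 cKO, 509 CPM in Sp8 cKO and 452 CPM in Sp6+Sp8 cKO, against 459 CPM in wildtype. Timp3, the matrix-bound inhibitor that also blocks ADAMTS proteases, stood at 462, 476 and 477 CPM in those cKO libraries and 380 CPM in wildtype, with log2 ratios of 0.28, 0.32 and 0.33. Timp4 stayed below 1 CPM. Per kilobase, summed Mmp levels were 1.03, 1.05 and 1.08 times the summed Timp levels in Sp6, Sp8 and Sp6+Sp8 cKO and 1.05 times in wildtype. Summed Adamts levels per kilobase were 0.210, 0.216 and 0.227 times the summed Timp levels in those cKO libraries and 0.240 times in wildtype. The CPM ratio of Mmp13 to Timp1 was 6.41, 6.22 and 7.98 in those cKO libraries and 5.07 in wildtype.

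**Figure D2:**
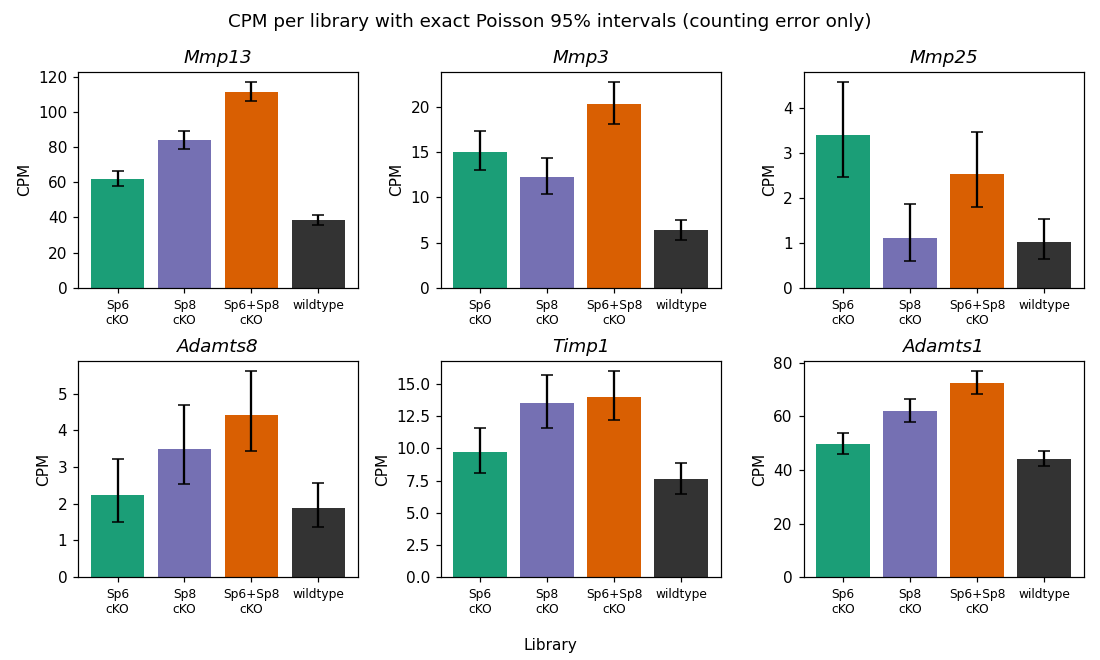
CPM of Mmp13, Mmp3, Mmp25, Adamts8, Timp1 and Adamts1 in each library, as bars that start at 0 with exact Poisson 95% intervals for counting error only. The double cKO bar is the highest for Mmp13, Mmp3, Adamts8, Timp1 and Adamts1, whereas Mmp25 is high in Sp6 cKO and Sp6+Sp8 cKO and near the wildtype level in Sp8 cKO.

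Counted over the measured members, Sp6+Sp8 cKO against wildtype had 4 of 32 past the size rule, all of them higher (12.5%), beside 5.79% of 16861 genes past it in either direction and 2.84% higher. The 4 were Mmp3, Mmp13, Mmp25 and Adamts8, with log2 ratios of 1.66, 1.53, 1.22 and 1.18. Sp6 cKO against wildtype had 2 of 33, both higher, beside 4.4% of 16884 genes in either direction and 2.24% higher. These were Mmp25 and Mmp3, at 1.63 and 1.23. Sp8 cKO against wildtype had 1 of 33, Mmp13 at 1.12, beside 3.82% of 16878 genes in either direction and 2.27% higher. No member was lower past the rule in a comparison with wildtype, where 2.16%, 1.55% and 2.95% of all genes were lower in Sp6, Sp8 and Sp6+Sp8 cKO. Adamts19, at 0.155 CPM in Sp6 cKO and 0.874 CPM in wildtype (2 and 19 counts, 5.64-fold lower, 95% interval 1.36 to 49.9), was left out by the CPM floor and counted as lower without it, or with library totals without the 20 most abundant genes. The median log2 ratio of the members was 0.10 for Sp6 cKO, 0.07 for Sp8 cKO and -0.08 for Sp6+Sp8 cKO against wildtype, beside -0.01, -0.01 and -0.02 over all genes. The 3 comparisons share the wildtype library, so they are not independent of each other. In either direction, the single cKO shares of members, 6.06% in Sp6 cKO and 3.03% in Sp8 cKO, are near those of all genes. In the higher direction the Sp6 cKO share is 6.06% beside 2.24%. The double cKO share rests on 4 genes, of which Mmp25 and Adamts8 drop out at a CPM floor of 5. All 3 comparisons cross batches, and the members were chosen with earlier results known.

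Within batch 1, Sp8 cKO against Sp6 cKO had 1 of 33 members past the rule, Mmp25, which was lower with a log2 ratio of -1.51, beside 3.1% of 16912 genes in either direction, 1.75% higher and 1.35% lower. Sp6+Sp8 cKO against Sp8 cKO also had 1 of 33, Mmp25, higher with a log2 ratio of 1.10, beside 4.68% of 16889 genes in either direction, 1.88% higher and 2.8% lower. Sp6+Sp8 cKO against Sp6 cKO had 0 of 33, beside 3.97% of 16848 genes in either direction, 1.89% higher and 2.08% lower. The nearest to the threshold there were Mmp27 at -0.94, Adamts8 at 0.94, Mmp23 at -0.88 and Mmp13 at 0.84. Each Mmp25 result past the rule within batch 1 uses the Sp8 cKO library, which had the low Xist level. The part of sex in them was not tested.

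**Figure D3:**
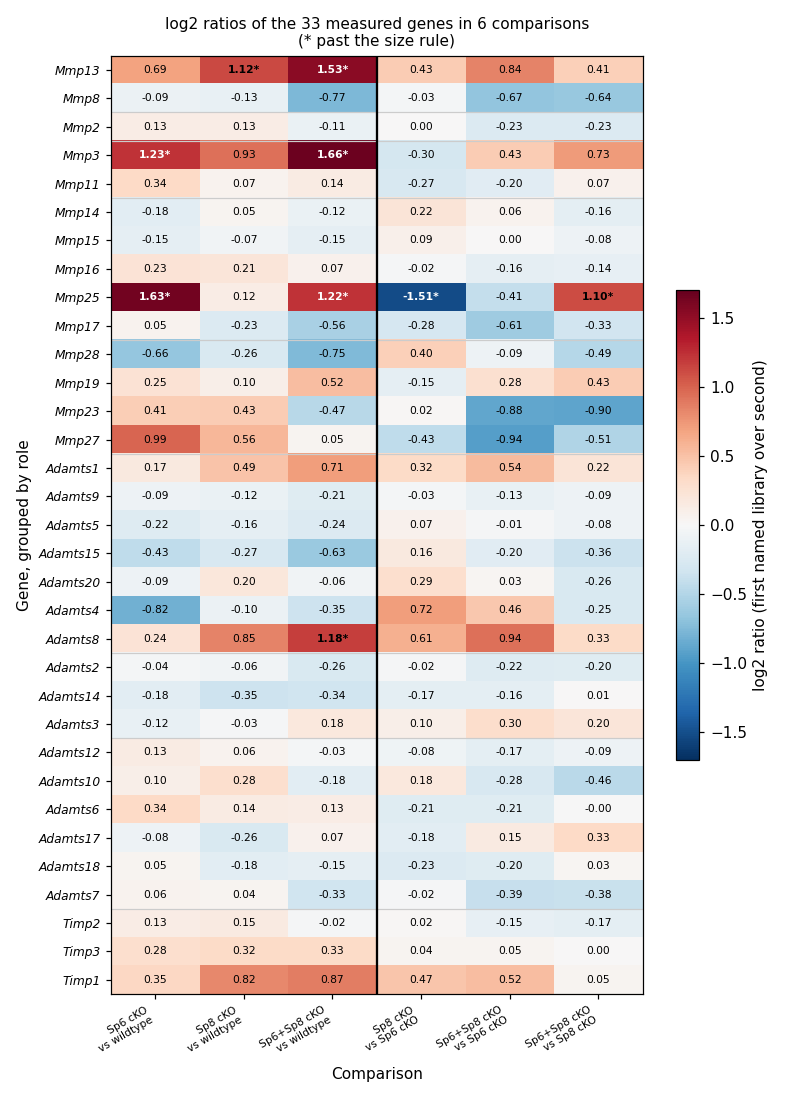
Heat map of the log2 ratios of the 33 measured genes in the 6 comparisons, first named library over second, with an asterisk where a gene is past the size rule. Asterisks fall on Mmp3, Mmp13, Mmp25 and Adamts8 only, and Mmp25 alone carries them in comparisons within batch 1.

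The 4 genotypes allow each deletion to be read with and without the other, in pairs of comparisons that share no library. For the Sp8 deletion, Mmp13 had a log2 ratio of 0.84 in Sp6+Sp8 cKO over Sp6 cKO and 1.12 in Sp8 cKO over wildtype, Mmp3 had 0.43 and 0.93, and Adamts8 had 0.94 and 0.85. For the Sp6 deletion, Mmp25 had 1.10 in Sp6+Sp8 cKO over Sp8 cKO and 1.63 in Sp6 cKO over wildtype, Mmp3 had 0.73 and 1.23, and Mmp13 had 0.41 and 0.69. Mmp13 and Mmp3 were thus higher in each of these comparisons, at sizes on both sides of the threshold. However, Sp6 transcripts were only 1.65-fold lower in Sp6+Sp8 cKO than in Sp8 cKO, short of the size rule. That comparison also sets the library with the highest Xist level against the one with the lowest. Other members turned direction. For Mmp23, the Sp8 deletion went with -0.88 in Sp6+Sp8 cKO over Sp6 cKO and 0.43 in Sp8 cKO over wildtype, and the Sp6 deletion with -0.90 in Sp6+Sp8 cKO over Sp8 cKO and 0.41 in Sp6 cKO over wildtype. Mmp27, on 14 to 24 counts per library, turned by more, with -0.94 and 0.56 for the Sp8 deletion and -0.51 and 0.99 for the Sp6 deletion. Mmp2, Timp2 and Adamts10 also had opposite signs for both deletions, at smaller sizes, and are named after their values were seen. For the Sp8 deletion these were -0.23 and 0.13 for Mmp2, -0.15 and 0.15 for Timp2, and -0.28 and 0.28 for Adamts10. In each pair, the first comparison lies within batch 1 and the second crosses batches. A turn is the same contrast of the same 4 libraries whether it is read for Sp8 or for Sp6. The readings for Sp8 and Sp6 are therefore not separate observations.

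**Figure D4:**
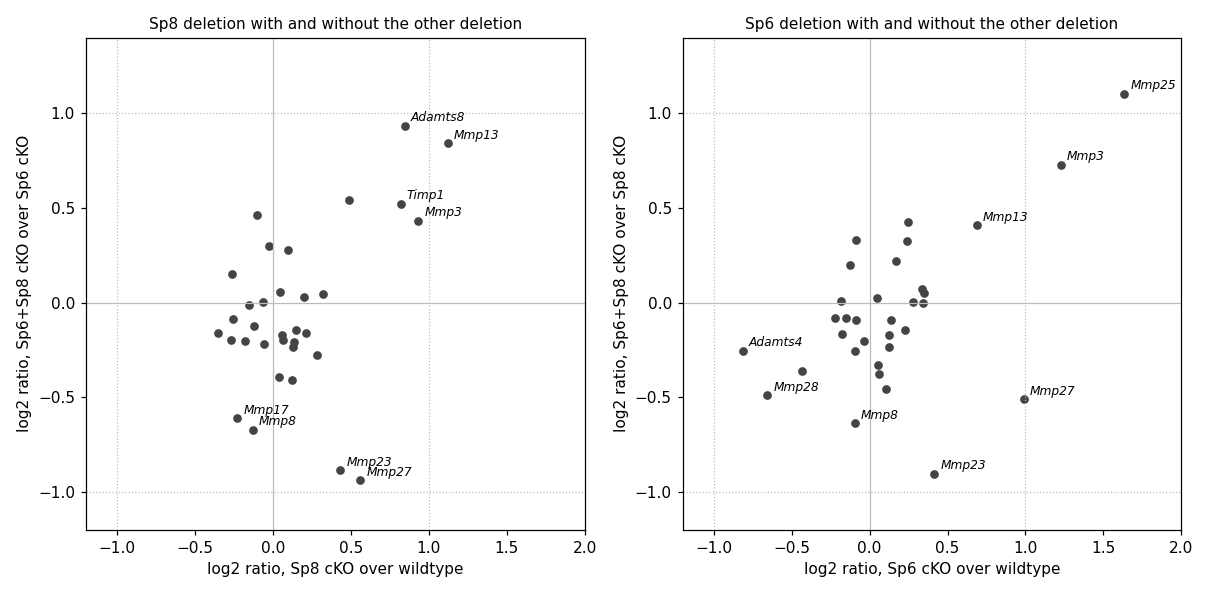
Each point is a measured gene, with the log2 ratio of a deletion to wildtype on the x axis and of the same deletion on top of the other cKO on the y axis, for Sp8 on one panel and Sp6 on the other. Mmp13 and Adamts8 lie at upper right for Sp8, Mmp25 and Mmp3 at upper right for Sp6, and Mmp23 and Mmp27 at lower right in both panels.

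Mmp13 and Mmp3 belong to a cluster of 10 members on chromosome 9 (7272514 to 7699585 on GRCm38, 427.1 kb), in the order Mmp13, Mmp12, Mmp1b, Mmp3, Mmp1a, Mmp10, Mmp8, Mmp27, Mmp20 and Mmp7. Only 4 of them were measured, namely Mmp13, Mmp3, Mmp8 and Mmp27. In Sp6+Sp8 cKO over wildtype their log2 ratios were 1.53, 1.66, -0.77 and 0.05. Mmp8, on 15 and 38 counts, was 1.79-fold lower with an interval that included no difference (0.963 to 3.51). Mmp27 was below 1 CPM in both of these libraries and was not compared there. Promoter sequence was found for 32 of 45 symbols, among them all 10 cluster members but not Adamts8. A gene was counted for a motif when any of its windows held it. TGANTCA stood in 8 of these 10 promoters and in 0 of the other 22, TATAAA in 7 and in 2, and GGGCGG in 0 and in 16. Mmp12 and Mmp7 each also have a further window without TGANTCA. In Mmp20 the letters were TGAATCA, which only the loose form of the motif takes in. Of the 8 with TGANTCA, 6 were below 1 CPM in every library. Of those 6, Mmp12 and Mmp20 are left out here. The 27 bases around the motif (capitals) in the other 4, at 0 to 13 counts per library, are printed below.
Mmp1a, chr9:7464058-7464084, plus strand: ttgtcaaccaTGAGTCAcatagcctct
Mmp1b, chr9:7388103-7388129, minus strand: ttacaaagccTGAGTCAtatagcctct
Mmp10, chr9:7502269-7502295, plus strand: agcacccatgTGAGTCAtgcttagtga
Mmp7, chr9:7692017-7692043, plus strand: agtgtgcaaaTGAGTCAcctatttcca
The motif began 73, 93, 63 and 63 bases before the start in these 4. Mmp8 and Mmp27, the other measured members of the cluster, hold no match in this window. The part of the motif in the levels of the cluster was not tested.

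Other genes of the pathway were mostly level. Of 13 activators of matrix proteases, such as plasminogen activators, furin and cathepsins, 0 passed the size rule in any of the 6 comparisons, and the same held for 10 other protease inhibitors, 11 ADAM and astacin proteases and 7 ADAMTS-like genes. Of the 18 matrix substrates compared between Sp6+Sp8 cKO and wildtype, 1 was lower, Col2a1 (the collagen of cartilage, log2 ratio -1.34), and the list median was -0.38. None passed the rule in either single cKO against wildtype or between the single cKO libraries. Within batch 1, Col2a1 in Sp6+Sp8 cKO was also lower relative to Sp6 cKO (-1.57) and to Sp8 cKO (-1.04), and against Sp8 cKO the proteoglycan gene Bcan (brevican) was lower too (-1.58, at about 1 CPM or less). Among 12 AP-1 subunits and cytokines known to induce MMP genes, 3 were higher in Sp6+Sp8 cKO than in wildtype and 0 lower. Fosb, an AP-1 subunit, stood at 19.2 CPM in Sp6 cKO, 8.73 CPM in Sp8 cKO and 80.3 CPM in Sp6+Sp8 cKO, against 10.2 CPM in wildtype. Fosl1, another subunit, stood at 3.57, 3.89 and 10.7 CPM in those cKO libraries and 4 CPM in wildtype. Both were highest in the double cKO. Il1b, the cytokine interleukin 1 beta, stood at 2.02, 1.67 and 2.47 CPM in those cKO libraries and 0.552 CPM in wildtype, past the rule in each. In both single cKO libraries it was the only gene of this list past the rule against wildtype. Fos itself was 14.0 CPM in Sp6+Sp8 cKO and 25.3 CPM in wildtype, a log2 ratio of -0.84. Within batch 1, Sp6+Sp8 cKO over Sp6 cKO gave log2 ratios of 2.06 for Fosb, 1.55 for Fosl1 and -1.19 for Fos, and Sp6+Sp8 cKO over Sp8 cKO gave 3.18 for Fosb, 1.42 for Fosl1 and 1.11 for Tnf, the cytokine tumour necrosis factor. Sp8 cKO over Sp6 cKO gave -1.12 for Fosb and -1.11 for Fos. The part of these genes in the MMP values was not tested.

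Markers of cells that make or accompany these enzymes also differed, and in bulk tissue fewer cells of a type and less RNA per cell cannot be told apart. Osteoclast markers summed to 174 CPM in Sp6 cKO, 242 CPM in Sp8 cKO and 230 CPM in Sp6+Sp8 cKO, against 130 CPM in wildtype, and 0, 3 and 4 of 8 measured markers were higher past the rule in those cKO libraries. Calcr was at 0 counts in Sp8 cKO. Chondrocyte markers, which with osteoblast markers belong to the cell types best known for Mmp13, summed to 404, 378 and 310 CPM in those cKO libraries and 394 CPM in wildtype, with 2 of 6 lower in Sp6+Sp8 cKO and Col9a1 at 0 counts in Sp8 cKO. Osteoblast and osteocyte markers summed to 670, 680 and 593 CPM in those cKO libraries and 575 CPM in wildtype, with 1 of 10 higher and 3 lower in Sp6+Sp8 cKO. Their median log2 ratios to wildtype were 0.02, -0.03 and -0.40, so the sums and the medians differ in direction for Sp8 and Sp6+Sp8 cKO. Neutrophil markers, beside Mmp25, summed to 117, 89.1 and 130 CPM in those cKO libraries and 64.2 CPM in wildtype. Of 10 measured, 3 were higher and 0 lower in Sp6 cKO, 2 higher and 1 lower in Sp8 cKO, and 3 higher and 2 lower in Sp6+Sp8 cKO. The neutrophil marker Ly6g was at 0 counts in Sp6+Sp8 cKO, and S100a8, a marker on this list that keratinocytes also express after wounding, made up 50.2, 30.6 and 69.2 CPM of the sums in the cKO libraries and 8.83 CPM of that in wildtype. S100a9, the other subunit of the same protein, had the highest log2 ratio to wildtype of the list in each cKO library (2.57, 2.13 and 3.24), while the list medians were -0.02, 0.13 and -0.16. Macrophage markers summed to 378, 397 and 328 CPM in those cKO libraries and 272 CPM in wildtype, with 0 of 9 past the rule and Marco at 0 counts in the 3 cKO libraries. Tendon markers summed to 510, 536 and 317 CPM in those cKO libraries and 507 CPM in wildtype, and wound keratinocyte markers to 3118, 2750 and 2276 CPM in the cKO libraries and 2709 CPM in wildtype. Endothelial and mural markers summed to 876, 968 and 808 CPM in the cKO libraries and 896 CPM in wildtype. Fibroblast markers summed to 15713, 15172 and 12501 CPM in the cKO libraries and 15763 CPM in wildtype. The part of cell makeup in the protease values was not tested.

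**Figure D5:**
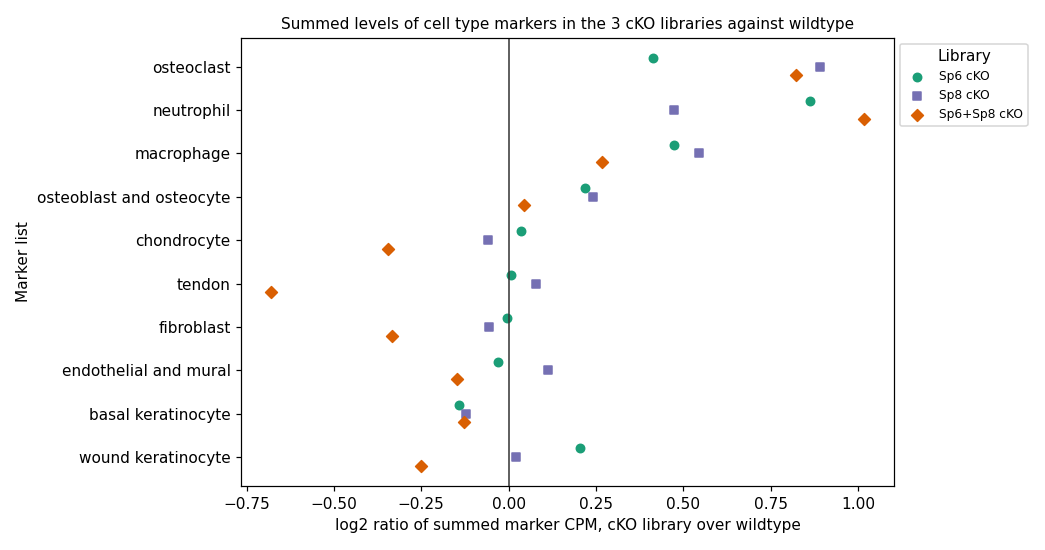
The log2 ratio of the summed CPM of each cell type marker list in each cKO library over wildtype, with 1 point per cKO library. Osteoclast, neutrophil, macrophage and osteoblast points lie right of 0 in all 3 cKO libraries. However, median log2 ratios in Sp6, Sp8 and Sp6+Sp8 cKO were -0.02, 0.13 and -0.16 for neutrophil markers. Those of osteoblast and osteocyte markers were 0.02, -0.03 and -0.40. In Sp6+Sp8 cKO the chondrocyte, tendon, fibroblast, endothelial and mural, and wound keratinocyte points lie left of 0. Basal keratinocyte points lie left of 0 in all 3 cKO libraries.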

How the data were processed

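Per the labels' protocols, libraries were strand-specific (dUTP method, poly-A selected) and read in pairs of 150 bp with a DNBSEQ-T7. The authors deposited estimated counts per gene, not scaled for depth. The submitters' processing notes list GRCm38 as the genome build and, without roles, Salmon, STAR, featureCounts, deepTools, edgeR and Trim Galore 0.6.4. The annotation release was not given in the sources used here. A further column (1) matched none of the samples and was left out.

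Counts were rounded to whole numbers and scaled by TMM (edgeR 4.0.16, R 4.3.3). Log2 ratios are differences of log2 CPM at a prior count of 2. Ratio intervals are exact Clopper-Pearson 95% intervals given the summed counts. Reads without molecular identifiers are not independent molecules, so intervals cover counting error only. Positions and exon lengths came from GENCODE M21, in which 98.8% of identifiers were found. In 39 of 46 members all values were whole within 0.01. The procedure was tested on simulated data. The members, gene lists and comparisons were chosen with earlier results of these data known. Named with values in every library were members past the size rule in any comparison and the 10 highest per kilobase. From each other list up to 3 genes past the rule were named per comparison. Alternatives were DESeq2 1.42.0 size factors, library totals with and without the 20 most abundant genes, a prior count of 0.5, CPM floors of 0 and 5 and a 1.5-fold threshold. With 1 library per group, nothing was tested across replicates. The erythroid marker list is not reported here.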

Additional observations from a re-analysis of the deposited data

Results flagged for a closer look

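Mmp23 is listed here because a deletion went with opposite directions depending on the other deletion, by at least 1 log2 unit, with both counting intervals excluding no difference. This choice was made after the values were seen. The log2 ratio of Sp6+Sp8 cKO over Sp6 cKO minus that of Sp8 cKO over wildtype was -1.32. Mmp27 turned by more (-1.5), but the interval of Sp8 cKO over wildtype (0.754 to 3.14) included no difference. Mmp2, Timp2 and Adamts10 turned by less (-0.36, -0.30 and -0.56), so the turn is not particular to Mmp23. With 1 library per genotype the difference was not tested, and the comparison with wildtype crosses batches.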

How the results depend on the processing

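No paired analysis was possible because each group has 1 library, and for the same reason no replicate could be left out. Of 42 alternative counts of members past the size rule, 30 stayed within 1.5 times the main count. None of the 3 other scalings moved a count beyond that. With a CPM floor of 5, 26 members were compared. Against wildtype, 1 passed for Sp6 cKO and 2 for Sp6+Sp8 cKO, beside 2.03% and 2.98% of all genes. The count was 0 for Sp8 cKO against Sp6 cKO and 0 for Sp6+Sp8 cKO against Sp8 cKO, where Mmp25 is below 5 CPM. In these, 1.07% and 2.19% of all genes passed. With a 1.5-fold threshold, the counts against wildtype were 6 of 33 for Sp6 cKO, 4 of 33 for Sp8 cKO and 8 of 32 for Sp6+Sp8 cKO. The shares of all genes there were 9.09%, 8.16% and 13.8%. Within batch 1 the counts were 2 of 33 for Sp8 cKO against Sp6 cKO, 4 of 33 for Sp6+Sp8 cKO against Sp6 cKO and 3 of 33 for Sp6+Sp8 cKO against Sp8 cKO. In the same order, 1, 2 and 1 of these members were lower. Of all genes, 6.02%, 9.53% and 10.9% passed in these comparisons in either direction. For Sp6+Sp8 cKO against Sp6 cKO, a prior count of 0.5 gave 1 member (Mmp27, lower), beside 4.24% of all genes. With no CPM floor there were 2 (Adamts13 and Mmp21, higher), beside 3.74% of all genes. The cause was not tested. For Sp6 cKO against wildtype, library totals without the 20 most abundant genes, and no CPM floor, each gave 3 members, with Adamts19 added as lower. Of all genes, 4.59% and 4.27% passed under these settings. Median log2 ratios of the members moved by less than 0.1 in all 42 alternatives. Values of Mmp3, Mmp13, Mmp25 and Adamts8 were followed where they passed the rule in the main or the alternative setting. Of these, 58 passed in both, 6 newly passed, 5 no longer passed and 0 changed direction. Other members, such as Adamts1, Timp1 and Mmp23, also passed at the 1.5-fold threshold and are not in that tally. The summed Adamts level of Sp6+Sp8 cKO over wildtype had a log2 ratio of -0.04, and of 0.01 with library totals without the 20 most abundant genes. Depth limits Mmp25 and Adamts8, at 14 to 68 counts per library, and likewise Mmp27 and Mmp8, at 14 to 38.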
